A study of Homo sapiens with 4 samples.

Results

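A set of 9 genes of the YAP/TAZ–TEAD pathway was followed in differentiating human embryonic stem cells with and without an inhibitor of TGFβ signaling. They are the coactivators YAP1 and WWTR1 (the gene of TAZ), the transcription factors TEAD1 and TEAD4, and the target genes CTGF, CYR61, ANKRD1, AMOTL2 and AXL. The members were taken by gene symbol from the deposited expression table, 9 of its 58365 rows, and each symbol had 1 row. H1 cells, an established line of human embryonic stem cells, were driven toward blood by 2 days of activin A (40 ng/ml) and BMP4 (50 ng/ml), then 3 days of VEGF (40 ng/ml) and bFGF (50 ng/ml). In the final 3 days the VEGF and bFGF medium was used either with SB431542, which blocks the type I receptors of TGFβ, activin and nodal, or without it, and RNA was taken at day 8. The SB group and the control group, titled DMSO, have 2 libraries each. All of them come from 1 cell line, and nothing in the labels tells whether the replicates were separate cultures, so p-values measure the spread between these libraries only. The study's text describes collection of CD31-positive cells, which the labels do not mention.

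YAP1 and TAZ carry no DNA-binding domain of their own, and reach their target genes through the TEAD factors. The Hippo kinases phosphorylate them and hold them in the cytoplasm, while cell spreading and a stiff matrix favor their entry into the nucleus. CTGF, CYR61 and ANKRD1 are widely read as their target genes, and in many cells these genes also respond to SMAD2/3, the transcription factors downstream of the TGFβ receptors, which can share promoters with TEAD and YAP/TAZ.

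Expression was deposited as FPKM, fragments scaled to transcript length and library depth, so levels can be compared between genes. The low values of genes with 1 transcript lay on whole-fragment steps (within 0.05 of a fragment for 91.9% to 94.6% of the genes compared), which put the estimated depth of the libraries at 19.55 to 25.8 M fragments. SB replicate 1 was the shallowest, at 75.8% of the deepest. The libraries also separated by replicate number. Mitochondrial genes took 5.88% and 6.64% of the FPKM sum in replicates 1 and 9.92% and 10.2% in replicates 2, with the DMSO library first in each pair. For this reason the difference between SB and DMSO is also given for each replicate number.

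The promoter of CTGF is shown first because it held the most matches to the TEAD motif. The letters GGAATG, or CATTCC on the other strand, were searched in RefSeq windows (build GRCh38.p14) from 250 bases before to 50 bases after each start. Of the 9 genes, 6 had windows, 9 windows in all (not CYR61, TEAD1 and TEAD4). The sequences below stop short of the transcribed part and run 5′ to 3′ on the minus strand, with the TEAD motif in capitals, and cover chr6:131951374-131951622 (CTGF) and chr10:90921277-90921337 (ANKRD1).
CTGF: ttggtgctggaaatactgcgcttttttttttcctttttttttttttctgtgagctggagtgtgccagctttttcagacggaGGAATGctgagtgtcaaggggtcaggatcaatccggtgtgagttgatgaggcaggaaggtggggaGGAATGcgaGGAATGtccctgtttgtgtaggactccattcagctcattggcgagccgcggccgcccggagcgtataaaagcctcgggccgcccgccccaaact
ANKRD1: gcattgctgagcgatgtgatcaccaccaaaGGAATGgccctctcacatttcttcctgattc

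In CTGF the 3 matches began 169, 104 and 95 bases before the start, the last pair being separated by 3 bases. At least 3 matches were found in 0.125% of 35116 promoter windows of all genes. ANKRD1 had a match 220 bases before the RefSeq start and another at 128 bases, the latter inside the transcript as annotated in the deposited table. At least 2 matches were found in 1.36% of windows. YAP1 had 1 match, at 162 bases, and AMOTL2 and AXL had 1 each, at 69 and 212 bases before the second of their starts. WWTR1 had none in its windows, and 14% of all windows held at least 1. The letters CAGACA or TGTCTG, part of a SMAD motif, were in 1 window each of ANKRD1, AMOTL2, AXL and WWTR1, and in 16.9% of all windows. AMOTL2, AXL and WWTR1 had 2 windows each, and the match of WWTR1 lay after the start. CTGF had no match to all 6 letters. Its printed sequence holds cagacg, which differs from CAGACA in the last letter, shortly before the first TEAD match. A match of 6 letters describes the sequence and does not show that a factor bound there, and the lack of a match does not show that none did.

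**Figure D1:**
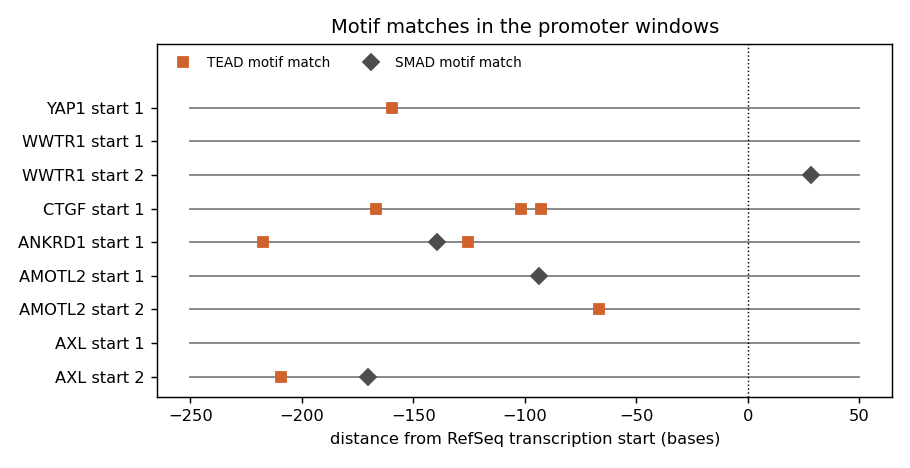
Positions of TEAD motif matches (squares) and SMAD motif matches (diamonds) in the 9 promoter windows, in bases from the RefSeq start (dotted line). CTGF shows 3 squares and ANKRD1 shows 2, while the first windows of WWTR1 and AXL are empty.

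All 5 target genes stood lower in both SB libraries than in either DMSO library, a pattern that 16.0% of all 14909 genes tested showed. In bulk RNA, fewer cells that express a gene and less RNA per cell cannot be told apart. CTGF (ENSG00000118523.5, chromosome 6, 131948176 to 131951373, minus strand, in GRCh38 as for all genes here), a secreted matricellular protein of the CCN family, was at 4.99 and 6.03 FPKM with DMSO and at 0.594 and 0.543 FPKM with SB431542. The groups were far apart, at 5.51 ± 0.734 against 0.568 ± 0.0359 FPKM (SD, n = 2 each), a 9.7-fold lower mean. The gene has 1 annotated transcript of 2339 nt in 5 exons, so its values could be turned back into fragments. They amounted to an estimated 250 and 292 fragments with DMSO and to 24 (95% exact Poisson interval 15.4 to 35.7) and 29 (19.4 to 41.6) with SB431542. Intervals of this kind cover counting error only. The log2 fold change of FPKM + 1 was -2.05 (95% interval -2.57 to -1.53, limma adjusted p 0.0753), and it was -1.91 within replicate 1 and -2.19 within replicate 2. Adding 1 to each FPKM shrinks the change of genes as low as CTGF.

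ANKRD1 (ENSG00000148677.6, chromosome 10, 90912096 to 90921276, minus strand) encodes an ankyrin repeat protein of the nucleus and the sarcomere that is abundant in heart muscle. It had the largest difference of the 9 genes, with 4.23 and 5.98 FPKM under DMSO against 0.24 and 0.454 FPKM under SB431542. The means were 5.11 ± 1.24 and 0.347 ± 0.151 FPKM (SD, n = 2 each), a ratio of 14.7. Its values correspond to an estimated 175 and 239 fragments with DMSO and to 8 (95% exact Poisson interval 3.45 to 15.8) and 20 (12.2 to 30.9) with SB431542, so that the low end rests on few fragments. The log2 fold change was -2.17 (95% interval -2.81 to -1.53, limma adjusted p 0.0845), with -2.08 and -2.26 within replicates 1 and 2. CTGF and ANKRD1 entered the test only through their DMSO level, since both lay under 1 FPKM with SB431542, and so had to be lower. The cardiac gene ACTC1 stood lower as well, at 9.62 and 11.9 FPKM with DMSO and 0.519 and 0.677 FPKM with SB431542 (log2 fold change -2.87, limma adjusted p 0.0365, also let in only by its DMSO level), and the part of cardiac cells in the values of ANKRD1 was not tested.

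CYR61 (ENSG00000142871.16, chromosome 1, 85580761 to 85583962, plus strand), a secreted CCN family protein like CTGF, kept a measurable level in all libraries. It was at 14.1 and 13 FPKM with DMSO and at 5.29 and 3.63 FPKM with SB431542. The SB mean was 32.9% of the DMSO mean (4.46 ± 1.18 against 13.6 ± 0.827 FPKM, SD, n = 2 each). The log2 fold change was -1.43 (95% interval -1.99 to -0.87, limma adjusted p 0.139), with -1.27 and -1.60 within numbers.

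AMOTL2 (ENSG00000114019.14, chromosome 3, 134355874 to 134375479, minus strand) encodes an angiomotin-like scaffold of endothelial junctions that binds YAP and restrains it, and is itself a target. It was at 14 and 12.9 FPKM with DMSO and at 5.61 and 7.42 FPKM with SB431542, so the SB mean was 48.4% of the DMSO mean. The log2 fold change was -0.96 (95% interval -1.46 to -0.45, limma adjusted p 0.223). AXL (ENSG00000167601.11, chromosome 19, 41219203 to 41261766, plus strand), a receptor tyrosine kinase of the TAM family, differed least of the targets. Its DMSO libraries were nearly equal at 5.64 and 5.66 FPKM, and its SB libraries were at 3.75 and 2.87 FPKM. The log2 fold change was -0.63 (95% interval -1.13 to -0.13, limma adjusted p 0.388). The order of the numbers was not shared: AMOTL2 differed more in replicate 1 (-1.18 against -0.73), and AXL more in replicate 2 (-0.78 against -0.48).

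**Figure D2:**
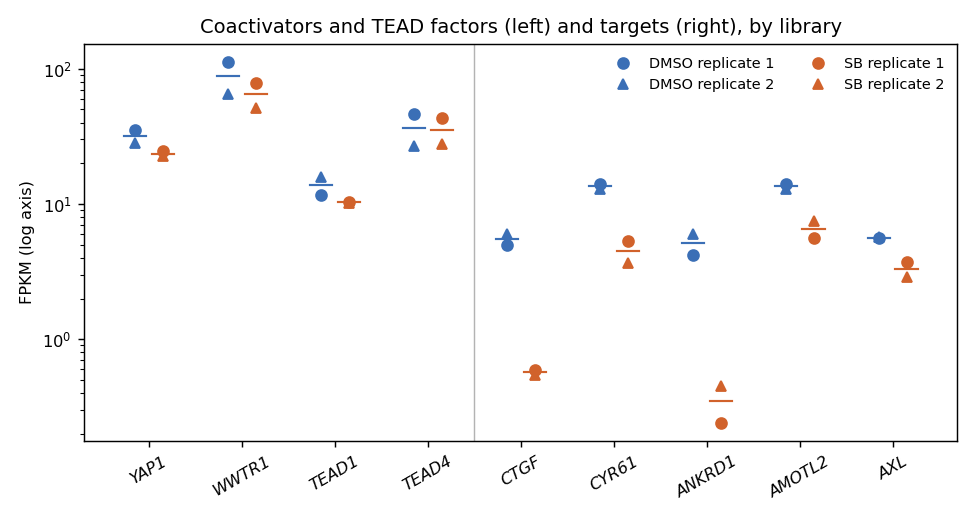
FPKM (log axis) of each gene in each library. Blue stands for DMSO and orange for SB431542, circles for replicate 1 and triangles for replicate 2, and bars for group means. The 5 targets at the right show separate groups, and WWTR1 and TEAD4 show overlapping ones with both replicates 1 on top.

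The coactivators and TEAD factors differed little by comparison. YAP1 (ENSG00000137693.13, chromosome 11, 102110461 to 102233423, plus strand) was at 35.5 and 28.3 FPKM with DMSO and at 24.6 and 22.6 FPKM with SB431542. Its groups did not overlap, and the SB mean was 74% of the DMSO mean (log2 fold change -0.41, 95% interval -0.90 to 0.08, limma adjusted p 0.592). TEAD1 (ENSG00000187079.16, chromosome 11, 12674591 to 12944483, plus strand) was at 11.6 and 15.7 FPKM with DMSO and at 10.3 and 10.2 FPKM with SB431542. Here too the groups did not overlap, though DMSO replicate 1 lay close to the SB libraries (log2 fold change -0.36, 95% interval -0.89 to 0.16, limma adjusted p 0.692). Without DMSO replicate 1 the value of TEAD1 was -0.56 and without DMSO replicate 2 it was -0.17, and that of YAP1 was -0.25 without DMSO replicate 1.

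WWTR1 (ENSG00000018408.14, chromosome 3, 149517235 to 149736714, minus strand) and TEAD4 (ENSG00000197905.8, chromosome 12, 2959330 to 3040673, plus strand) followed the replicate number more than the treatment. WWTR1 was at 112 and 65.2 FPKM with DMSO and at 78.5 and 51.1 FPKM with SB431542, replicate 1 being 1.71 times replicate 2 with DMSO and 1.54 times with SB431542. The pooled groups overlapped (log2 fold change -0.42, 95% interval -1.33 to 0.48, limma adjusted p 0.808), while SB was lower within both numbers (-0.50 and -0.34). The pooled value was -0.04 without DMSO replicate 1, -0.12 without SB replicate 2, -0.81 without DMSO replicate 2 and -0.73 without SB replicate 1. TEAD4 was at 46.3 and 27 FPKM with DMSO and at 43 and 27.6 FPKM with SB431542. Its difference was -0.10 in replicate 1 and 0.03 in replicate 2 (pooled -0.04, 95% interval -0.95 to 0.87, limma adjusted p 0.99). An interval this wide leaves room for a change of nearly 2-fold either way, and the pooled value turned to 0.34 without DMSO replicate 1 and to 0.27 without SB replicate 2.

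**Figure D3:**
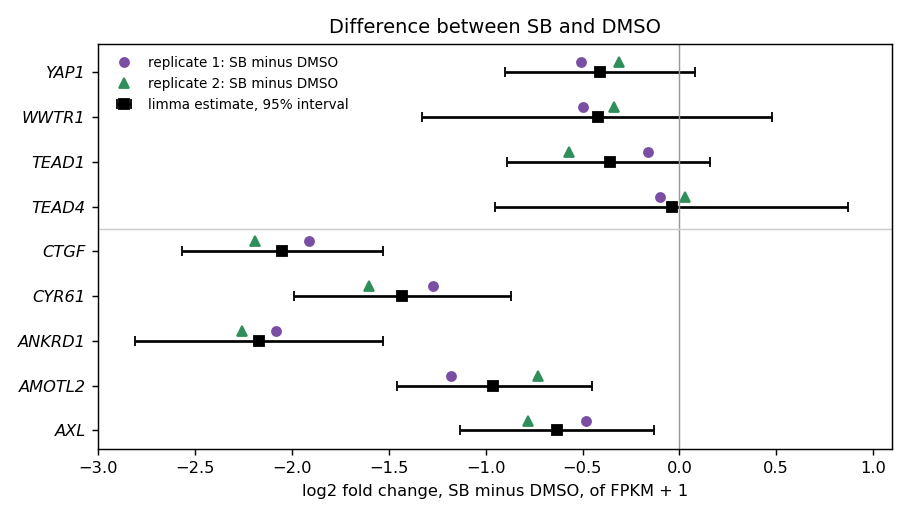
Log2 fold change of FPKM + 1, SB minus DMSO. Black squares give the limma estimate with its 95% interval, purple circles the difference within replicate 1 and green triangles that within replicate 2. The intervals of the 5 targets lie below 0, and those of YAP1, WWTR1, TEAD1 and TEAD4 include 0.

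Of the 14909 genes tested, 20 passed an adjusted p of 0.05, or 0.134% (0.107% when only lower genes are counted). Of the 9 pathway genes 0 passed by limma with group as the only term. In simulated data this fit called no change of 1 on the log2 scale. That bears on changes of that size or less, while CTGF, ANKRD1 and CYR61 stood at -2.05, -2.17 and -1.43. At an unadjusted p under 0.05 the count was 5 genes, namely the targets CTGF, CYR61, ANKRD1, AMOTL2 and AXL, all lower. Over all tested genes 5.16% were lower at this level. AXL did not reach it when any single library was left out, nor did AMOTL2 without SB replicate 1. Both SB libraries lay below both DMSO libraries for 7 of the 9 genes, against 16.0% of all tested genes. Values at or below -1 on the log2 scale were reached by 3 genes (CTGF, CYR61 and ANKRD1), against 2.16% of all tested genes. CTGF and ANKRD1, which the filter let in only from the DMSO side, are among these counts. The members were chosen with earlier results of these data known, so the counts are no test of the set. The median log2 fold change was -1.43 over the targets, -0.39 over the coactivators and TEAD factors, and 0.040 over all tested genes. Whether the targets changed more than the factors was not tested.

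By level, WWTR1 was the most abundant of the 9 genes in both groups (88.5 ± 32.9 FPKM with DMSO and 64.8 ± 19.4 with SB431542, SD, n = 2 each), followed by TEAD4 (36.7 ± 13.7 and 35.3 ± 10.9), YAP1 (31.9 ± 5.06 and 23.6 ± 1.43) and TEAD1 (13.7 ± 2.84 and 10.3 ± 0.0532). In the DMSO libraries TEAD4 and YAP1 overlapped, as did TEAD1, CYR61 and AMOTL2 in turn, and AXL, CTGF and ANKRD1 at the low end. With SB431542 CTGF and ANKRD1 stood apart below AXL (3.31 ± 0.628 FPKM), and AMOTL2 (6.51 ± 1.28 FPKM) stood above CYR61. The coactivators and TEAD factors lay at 10.2 FPKM or more in the libraries where CTGF and ANKRD1 were under 1 FPKM.

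The groups of the other TEAD factors overlapped, as those of TEAD4 did. TEAD2 was at 62.3 and 41.6 FPKM with DMSO and at 55.6 and 39.4 FPKM with SB431542 (log2 fold change -0.12), and TEAD3 at 14.4 and 8.85 against 10.1 and 5.88 FPKM (-0.50), with limma adjusted p of 0.962 and 0.76. VGLL4, a cofactor that competes with YAP for TEAD, was at 50 and 55.9 FPKM against 51 and 51.3 FPKM (-0.05), and VGLL1, VGLL2 and VGLL3 were under 1 FPKM in all libraries.

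The 7 genes of the Hippo kinase core, kinases and their adaptors that restrain YAP and TAZ, were all tested, with 0 past the adjusted p and 0 at an unadjusted p under 0.05 by limma. Their median log2 fold change was 0.19. The smallest p belonged to STK4, which encodes the kinase MST1 (13.7 and 17.5 FPKM with DMSO, 18.4 and 18.8 FPKM with SB431542, log2 fold change 0.25, limma adjusted p 0.782). MOB1A, an adaptor of the LATS kinases (0.22), and the kinase LATS1 (0.19) came next, with overlapping groups. Of the 19 upstream regulators, AMOTL2 among them, 18 were tested, and 0 passed the adjusted p. At an unadjusted p under 0.05, 2 were lower and 1 was higher, beside 5.16% lower and 4.80% higher among all tested genes. Besides AMOTL2 these were AJUBA, a LIM protein that inhibits LATS kinases (4.09 and 4.76 against 2.24 and 2.28 FPKM, log2 fold change -0.73, limma adjusted p 0.302), and TAOK3, a kinase of the TAO family (7.66 and 6.27 against 12.2 and 11.9 FPKM, 0.72, limma adjusted p 0.288). FAT4, an atypical cadherin, was next by p (6.46 and 7.83 against 5.28 and 5.82 FPKM, -0.31, limma adjusted p 0.719).

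Other genes commonly listed as YAP/TAZ targets lay on both sides of 0. Of 17 such genes 16 were tested, their median being -0.17 on the log2 scale, and 0 passed the adjusted p by limma. At an unadjusted p under 0.05, 4 were lower and 0 were higher, against 5.16% and 4.80% of all tested genes. The smallest p belonged to CCDC80, a secreted matrix protein (10.4 and 8.76 FPKM with DMSO, 3.35 and 2.9 FPKM with SB431542, log2 fold change -1.36, limma adjusted p 0.109). RBMS3, an RNA-binding protein, followed (8.33 and 11.2 against 3.87 and 5.05 FPKM, -0.97, limma adjusted p 0.27), and then TGFB2, a ligand of the inhibited pathway itself (8.96 and 7.58 against 3.51 and 1.05 FPKM, -1.60, limma adjusted p 0.308). Both SB libraries lay below both DMSO libraries in 5 genes, namely these 3, F3 and NUAK2, and above them in another 5, ASAP1, CRIM1, DOCK5, IGFBP3 and NT5E. Over all tested genes the shares were 16.0% below and 21.5% above. F3, which is among the 4 genes at an unadjusted p under 0.05, and NUAK2 lay under 1 FPKM on average with SB431542, so they entered the test only through DMSO and had to be lower. Those outside the 3 smallest p were named after their values were seen. Among the higher ones NT5E, the ecto-nucleotidase CD73, was at 16.1 and 22.4 FPKM with DMSO and at 26 and 33.8 FPKM with SB431542 (0.62, limma adjusted p 0.51), and CRIM1 at 22.6 and 22.7 against 30.9 and 29.1 FPKM (0.39, limma adjusted p 0.52).

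**Figure D4:**
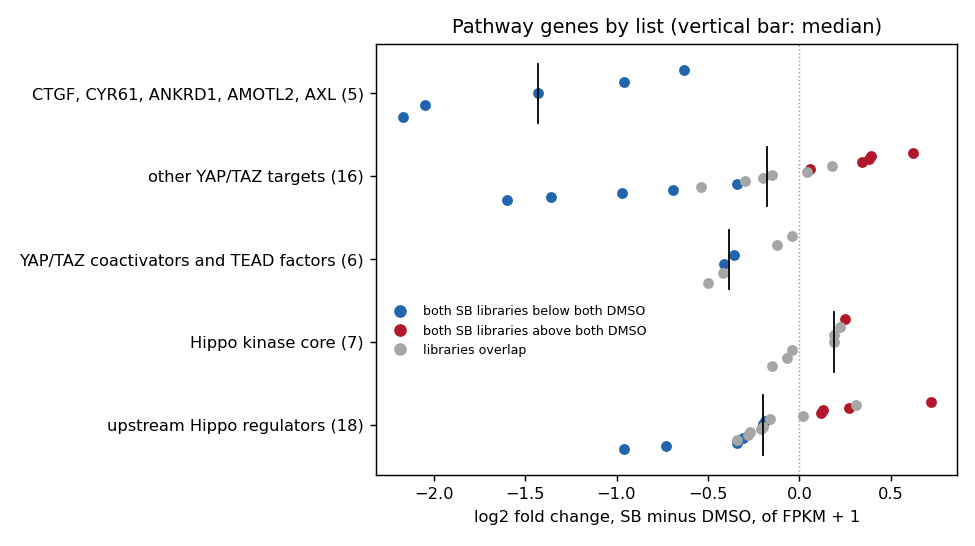
Log2 fold change of FPKM + 1 (SB minus DMSO) of each tested gene, by list, with the number of genes in parentheses and a bar at the median. Blue marks genes with both SB libraries below both DMSO libraries, red those with both above, and gray those that overlap. The 5 targets followed here are all blue, and the 16 other targets hold 5 blue and 5 red points.

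Relatives of the target genes were read for comparison. In the CCN family only CYR61 and CTGF reached the filter, and NOV, WISP1, WISP2 and WISP3 were each under 0.5 FPKM in all 4 libraries. Of the muscle ankyrin repeat genes, ANKRD23 was at 4.09 and 2.38 FPKM with DMSO and at 3.46 and 2.41 FPKM with SB431542 (log2 fold change -0.09), with overlapping groups, and ANKRD2 was under 0.1 FPKM. Among the angiomotins, AMOT (4.53 and 5.7 against 3.39 and 4.69 FPKM, -0.28) and AMOTL1 (13 and 15.1 against 12.2 and 12.2 FPKM, -0.19) differed less than AMOTL2, with limma adjusted p of 0.798 and 0.831, and the difference between the paralogs was not tested. In the TAM system the lowest value belonged to a ligand. GAS6, which activates AXL, was at 10.3 and 7.79 FPKM with DMSO and at 2.23 and 1.69 FPKM with SB431542 (-1.76, limma adjusted p 0.0969), while the ligand PROS1 (22.6 and 31.5 against 22.1 and 27.9 FPKM, -0.10) and the receptor MERTK (7.36 and 9.72 against 7.58 and 7.51 FPKM, -0.15) overlapped, as did TYRO3 (32.9 and 19.9 against 21 and 15.5 FPKM, -0.48).

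The profiles closest to CTGF were sought among 10343 tested genes with at least 5 FPKM in the higher group, by Euclidean distance of centered log2(FPKM + 1) over the 4 libraries. They were GPC3 (distance 0.11, 15.5 to 3.05 FPKM on average), a cell-surface proteoglycan, SLCO2A1 (0.12, 5.17 to 0.552 FPKM), a prostaglandin transporter, and FN1 (0.18, 264 to 60.5 FPKM), the matrix protein fibronectin. ANKRD1 ranked 7 in this order, CYR61 48, AMOTL2 150 and AXL 310, while YAP1 ranked 716 and TEAD4 5525. The closest to CYR61 were LIPG (0.17), PIM1 (0.19) and BGN (0.19). With 4 libraries such ranks describe the fold change of FPKM + 1 and the replicate gap and nothing finer. Adding 1 shrinks the change of CTGF, so GPC3 and FN1 lie close to it although their FPKM ratios were smaller.

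The sums of most marker lists also stood apart between the groups. Those of the 8 endothelial markers overlapped, their FPKM summing to 1714 and 1535 with DMSO and to 1562 and 1431 with SB431542, with PECAM1 (CD31) at 197 and 163 against 182 and 153 FPKM. The 7 cardiac markers summed to 58.6 and 37.2 FPKM with DMSO and to 11.8 and 6.79 with SB431542. Most of these sums was NKX2-5, a transcription factor of the early heart (45.3 and 21.9 against 10.4 and 5.23 FPKM, log2 fold change -1.95, limma adjusted p 0.274). ACTC1 and MYL7, the other tested genes, entered only through DMSO and had to be lower, and MYH6, TNNT2 and NPPA were under 1 FPKM in every library. The 8 mesenchymal markers summed to 354 and 316 against 169 and 171 FPKM, with all 6 tested genes lower in both SB libraries (16.0% of all tested genes) and DCN and POSTN under 1 FPKM. Among them the collagen gene COL1A1 was at 107 and 78.5 against 17.1 and 14.8 FPKM (log2 fold change -2.46, limma adjusted p 0.0646). The 5 smooth muscle markers summed to 67.3 and 73.1 against 39.8 and 41.6 FPKM, with all 3 tested genes lower and MYH11 at most 0.22 FPKM. Epithelial markers (5 genes, 240 and 235 against 111 and 117 FPKM) and endoderm and liver markers (6 genes, 209 and 188 against 62.2 and 29.8 FPKM) were lower too, with AFP, APOA1 and TTR past the adjusted p and SOX17 overlapping. SOX17, which the study's text also ties to endothelial identity, was at 53.3 and 17.5 against 49.3 and 17.3 FPKM. It made up most of the endoderm and liver sums with SB431542. The 8 hematopoietic markers summed to 313 and 284 against 506 and 452 FPKM. The largest part was ITGA2B, at 153 and 127 against 243 and 194 FPKM. Of the 7 tested genes 6 were higher in both SB libraries (21.5% of all tested genes), while CD53 overlapped. PTPRC, the gene of CD45, was at most 0.202 FPKM and not tested. The 4 pluripotency markers stood at 43.1 and 51.5 against 66.5 and 77.8 FPKM, nearly all of it LIN28A. CTGF, CYR61 and ANKRD1 are known from several of these cell types, and the part of such cells in their lower values was not tested. The study describes a collection of CD31-positive cells, and how many other cells were in the libraries was not tested.

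**Figure D5:**
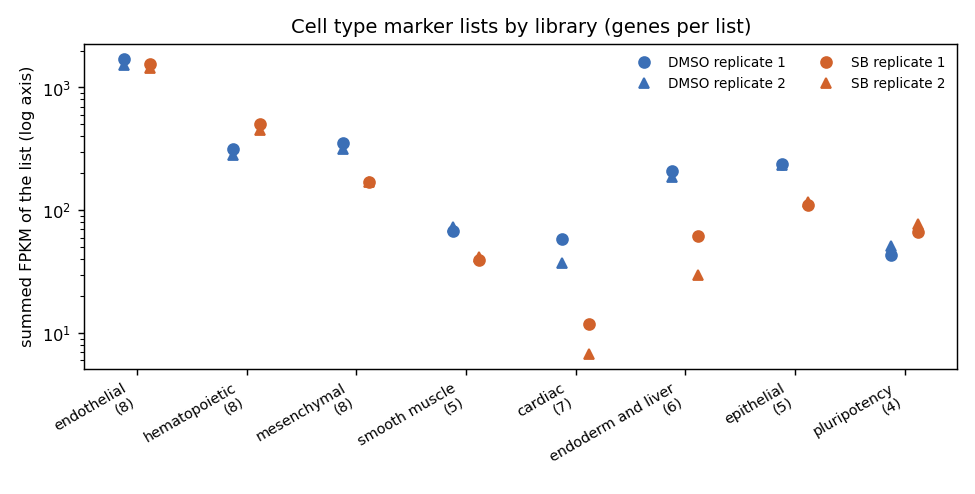
Summed FPKM (log axis) of 8 marker lists in each library, with the number of genes in parentheses and the same symbols as for the single genes. Endothelial sums overlap between DMSO and SB431542, cardiac, mesenchymal, smooth muscle, endoderm and epithelial sums are lower with SB431542, and hematopoietic sums are higher.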

How the data were processed

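RNA from 4 libraries was sequenced by a service company. The authors deposited FPKM values, 1 column per library, with no scaling between libraries stated. The submitters' processing notes name BWA, Bowtie, RSEM and hg19, without roles. The loci in the table are on GRCh38: 95.5% of rows had their versioned identifier in GENCODE release 29, 99.8% of these at the same position, and coordinates are counted from 1. Strand use is not given in the sources used here. The annotated genes overlapping the 9 members held at most 0.306 FPKM, a value of WWTR1-IT1, which overlaps WWTR1. AL133346.1, on the strand opposite CTGF, held at most 0.185 FPKM, beside 0.594 and 0.543 FPKM of CTGF with SB431542. Its part in those low values was not tested.

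Genes with a mean of at least 1 FPKM in at least 1 group were tested on log2(FPKM + 1) with limma 3.58.1 in R 4.3.3 (empirical Bayes with trend, group as the only term), with two-sided p-values adjusted by Benjamini-Hochberg over all genes tested and a threshold of 0.05. The code was tested on simulated data with known changes of 1 or 2 on the log2 scale, up or down. Their spread was drawn from that of these libraries. The changes were placed only in genes with a mean log2(FPKM + 1) above 2, and CTGF and ANKRD1 lay below that level. The simulated libraries shared no deviation by replicate number, unlike the real ones. The fit returned the sizes of the changes and called none of those of 1, so a count of 0 called says little about changes of that size or less. With 2 libraries a group the smallest exact permutation p is 0.333, so that test was not used.

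Depth was estimated from genes with 1 transcript of over 1500 nt, as the number of fragments and the reduction of length that put most values of 1 to 5 fragments on whole numbers. The members, the gene lists and the marker lists were chosen with earlier results of these data known. Named besides the members were up to 3 genes per pathway list with the smallest p, every gene of pathway lists of 6 or fewer, and the 3 nearest profiles of CTGF and of CYR61. Marker lists were read by their sums, with PECAM1 named by rule and other marker genes named after their values were seen. The alternatives tried were a replicate block, other filters, scalings, pseudocount and variance model, and removal of each library. A planned comparison of protein sequences was not run.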

Additional observations from a re-analysis of the deposited data

How the results depend on the processing

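The 9 genes kept their side of the adjusted threshold of 0.05 under other filters, scalings, pseudocount and variance model and without any single library, with 0 called in each of these fits; CTGF and ANKRD1 could not be fitted where 5 FPKM was required in 2 or more libraries. With the replicate block, 5 passed: CTGF (-2.05, limma adjusted p 0.00919), ANKRD1 (-2.17, 0.00879), CYR61 (-1.43, 0.00985), AMOTL2 (-0.96, 0.0279) and WWTR1 (-0.42, 0.036). The labels do not say that a number marks a shared culture; the deviations of libraries with the same number correlated at 0.528 over genes, which with 2 pairs is only a hint of pairing. The count over all genes was 1564 with the block (10.5% of those tested), 31 with quantile normalization and 0 with no filter beyond a value above 0 in 1 library (2739 at an unadjusted p under 0.05), and 0 to 14 without 1 library, the lowest without DMSO replicate 1 (1168 at an unadjusted p under 0.05). Among the 9 genes, those at an unadjusted p under 0.05 numbered 3 to 4 without 1 library. CTGF, CYR61 and ANKRD1 were among them each time, AXL never, and AMOTL2 was lost without SB replicate 1. The direction was lower in all alternatives for every gene except TEAD4, which was at 0.34 without DMSO replicate 1 and at 0.27 without SB replicate 2. Over the single removals the log2 fold change ran from -2.16 to -1.93 for CTGF, from -2.38 to -1.96 for ANKRD1, from -1.65 to -1.21 for CYR61, from -1.13 to -0.78 for AMOTL2, from -0.78 to -0.48 for AXL, from -0.57 to -0.25 for YAP1, from -0.56 to -0.17 for TEAD1, from -0.81 to -0.04 for WWTR1 and from -0.42 to 0.34 for TEAD4. With a pseudocount of 0.1 the values of CTGF and ANKRD1 were -3.06 and -3.56. A group left with 1 library was assumed to vary like the other. Depth limits the low end, where ANKRD1 in SB replicate 1 rests on about 8 fragments.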
